A study of Mus musculus with 24 samples.

Results

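The enteric nervous system is the network of neurons and glia in the wall of the gut, gathered in the ganglia of the myenteric plexus, between the muscle layers, and of the submucosal plexus. Its neurons drive peristalsis through excitatory transmitters such as acetylcholine and substance P and relax the muscle through inhibitory ones such as nitric oxide and vasoactive intestinal peptide, and they also steer secretion and blood flow. The 9 genes described here were listed by name as markers of these neurons, out of 45616 gene names on the array. No rule on their array values picked them, but earlier results of these data were known when they were listed. Elavl4 encodes the RNA-binding protein HuD, Uchl1 the ubiquitin hydrolase PGP9.5, Tubb3 the neuronal class of beta-tubulin, Prph the intermediate filament peripherin and Snap25 a SNARE protein of vesicle release. Vip encodes vasoactive intestinal peptide, Tac1 the precursor of substance P, Nos1 neuronal nitric oxide synthase and Chat choline acetyltransferase, which makes acetylcholine. They were read by 16 of 56605 probes, and in colon RNA they report on all cells of the sample, so fewer neurons and less RNA per neuron cannot be told apart.

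Colon RNA of C57BL/6J mice was hybridized to 1-color Agilent arrays, 1 mouse per array, with 4 arrays in each of 6 groups. Male (M), female (F) and ovariectomized female (F(OVX)) mice were bought at 7 weeks of age. Per the methods, M and F mice had sham surgery, so F(OVX) stands against sham-operated F, and the RNA came from distal colon. All mice ate a low-fat (LFD) or high-fat (HFD) diet for 14 weeks, in which fat gave 10 or 45 kcal%. Mice of every group, LFD groups included, were injected with the carcinogen azoxymethane (AOM) at 10 mg/kg. They then drank 1.5% dextran sulfate sodium (DSS), which injures the colon lining, in 3 rounds, and were killed 75 days after AOM. No group was thus free of the tumor model. Per the methods, the animals put on arrays were those with a body weight close to the group mean, and the methods count 5 per group where the labels count 4. Ovariectomy removes the ovaries as a whole and is not specific to estrogen. No spot was saturated, and an array had 40.5% to 61.9% of its probes well above background (the scanner software's call of a spot brighter than its surroundings), with the lowest shares on F(OVX) + LFD replicate 3 and F + HFD replicate 2. Each of the 3 slides held 1 sex or surgery, so differences between M, F and F(OVX) cannot be told apart from the slide, and LFD arrays lay in row 1 and HFD arrays in row 2 of each slide, so diet cannot be told apart from the slide row. Replicates 1 and 2 of M + LFD stood apart in Hoxb13, a homeobox gene of the distal colon, at 2.18 and 5.04 on the log2 signal scale against 12.6 to 14.8 on the other 22 arrays, and all 12 epithelium markers were well above background on all 24 arrays. The main results that rest on the M + LFD arrays low in Hoxb13 are given with and without them.

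The 5 genes of neuron structure and the 4 transmitter genes did not vary alike between mice, and upstream sequence of 4 of them is shown to set these patterns beside the genes' start sites: Uchl1, Prph and Vip, whose signals varied together from array to array, and Tac1, whose signal did not follow them. Each run is the 250 bases before the start of the gene in RefSeq, mouse build GRCm38.p6, 5′ to 3′ on the strand of the gene, and lies at chr5:66675871-66676120 for Uchl1, chr15:99054924-99055173 for Prph, chr10:5638968-5639217 for Vip and chr6:7554811-7555060 for Tac1, all on the plus strand. Capitals mark TGACG, the core of the cyclic AMP response element, and TATAAA, a common core promoter element, each searched on both strands.
Uchl1: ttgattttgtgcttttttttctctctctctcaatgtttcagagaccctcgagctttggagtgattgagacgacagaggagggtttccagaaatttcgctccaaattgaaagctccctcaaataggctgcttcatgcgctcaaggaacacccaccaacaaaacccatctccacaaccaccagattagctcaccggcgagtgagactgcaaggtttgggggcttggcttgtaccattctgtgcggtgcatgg
Prph: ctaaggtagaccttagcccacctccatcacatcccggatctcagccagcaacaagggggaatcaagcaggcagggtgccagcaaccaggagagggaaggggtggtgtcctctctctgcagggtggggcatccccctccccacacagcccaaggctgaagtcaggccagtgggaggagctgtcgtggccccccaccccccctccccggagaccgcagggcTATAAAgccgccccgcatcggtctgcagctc
Vip: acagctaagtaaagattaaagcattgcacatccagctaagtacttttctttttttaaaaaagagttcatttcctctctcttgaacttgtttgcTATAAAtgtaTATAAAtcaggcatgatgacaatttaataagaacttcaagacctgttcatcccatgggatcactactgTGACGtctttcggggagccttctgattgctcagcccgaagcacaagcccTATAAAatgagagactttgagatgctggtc
Tac1: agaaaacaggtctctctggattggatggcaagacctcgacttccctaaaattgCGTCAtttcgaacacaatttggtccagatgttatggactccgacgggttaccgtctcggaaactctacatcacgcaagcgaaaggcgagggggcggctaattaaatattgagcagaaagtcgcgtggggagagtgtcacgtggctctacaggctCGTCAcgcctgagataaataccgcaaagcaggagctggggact

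Vip held TGACG at 79 bases before its start and TATAAA at 157, 147 and 30 bases before it, counted to the first base of the match. Prph held TATAAA at 31 bases before its start and no TGACG. Tac1 held TGACG at 197 and 43 bases before its start, both read from the other strand as CGTCA, and no TATAAA. Uchl1 held neither. The 8 genes with an entry have 11 such windows, 4 of them of Elavl4, and Snap25 was not matched. TGACG stood in 7 of the 11 (of Elavl4, Vip, Tac1, Nos1 and Chat) and TATAAA in 2, against 17.8% and 12.4% of all 32851 windows of the same length. Of the Elavl4 windows, 2 overlap and hold the same TGACG match, so 1 site is counted there more than once. An excess over all windows was not tested. A match is a description of the sequence and not of binding.

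Levels are log2 processed signals after quantile normalization over the 24 arrays, with the brightest probe standing for the gene, and values of different probes are not set against each other. Of the 9 genes, 7 could be tested, since a gene needed all 4 arrays well above background in either group of a diet comparison, or in any of the 6 groups for the contrasts fitted on 24 arrays. Prph met this only in F + LFD and F + HFD.

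Elavl4, the HuD gene, had its lowest group means in F(OVX) mice on both diets. Its values were 7.50, 7.56, 5.90 and 6.39 in M + LFD and 6.88, 6.26, 5.97 and 6.23 in M + HFD. They were 6.88, 6.19, 6.75 and 6.67 in F + LFD and 7.19, 7.31, 6.34 and 6.17 in F + HFD. In F(OVX) + LFD they were 5.78, 5.79, 5.49 and 5.50, with 3 of the 4 arrays well above background, and in F(OVX) + HFD 5.33, 6.71, 5.67 and 5.53. All 4 F(OVX) + LFD values thus lay below all 4 F + LFD values, whereas on HFD replicate 2 of F(OVX) reached into the range of F.

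Uchl1, the gene of PGP9.5, which pathologists stain to find nerves, spanned 3.66 log2 units over the 24 arrays, or 12.6-fold. It read 11.74, 12.10, 8.44 and 10.50 in M + LFD and 11.31, 8.82, 9.55 and 10.32 in M + HFD. It read 10.73, 9.72, 11.04 and 9.28 in F + LFD and 11.47, 11.12, 10.24 and 9.84 in F + HFD. It read 8.93, 9.75, 8.59 and 8.84 in F(OVX) + LFD and 8.95, 10.78, 9.25 and 9.09 in F(OVX) + HFD. The highest and the lowest array of the series both belonged to M + LFD, and every pair of groups compared overlapped.

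Prph, which encodes a filament of peripheral neurons, had the widest spread, with an SD within groups of 1.59 log2 units. Its values were 8.87, 9.08, 3.49 and 7.16 in M + LFD and 8.25, 3.54, 5.73 and 6.47 in M + HFD, well above background on 3 arrays of each. They were 7.66, 6.58, 7.92 and 5.47 in F + LFD and 8.42, 8.29, 7.17 and 7.03 in F + HFD, all 8 well above background. They were 5.15, 5.63, 4.40 and 4.26 in F(OVX) + LFD, of which 2 were well above background, and 4.58, 8.12, 6.05 and 4.89 in F(OVX) + HFD, of which 3 were. The arrays that were high in Uchl1 were high in Prph as well, such as replicate 2 of F(OVX) + HFD and replicates 1 and 2 of M + LFD.

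Tubb3, a tubulin of axons and dendrites, varied less, with an SD within groups of 0.59. It read 8.39, 8.54, 7.25 and 7.65 in M + LFD and 7.86, 6.34, 7.26 and 7.62 in M + HFD. It read 7.70, 7.55, 8.20 and 6.39 in F + LFD and 8.23, 8.56, 7.71 and 7.997 in F + HFD. It read 7.39, 6.93, 8.22 and 7.49 in F(OVX) + LFD and 7.23, 8.53, 7.87 and 7.67 in F(OVX) + HFD. The M + HFD arrays were mostly low and the F + HFD arrays high, with an overlap between 7.71 and 7.86.

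Snap25, a part of the machinery that fuses synaptic vesicles, was bright and steady, from 11.3 to 13.2 over the 24 arrays and with an SD within groups of 0.39. Its group means were 12.57 ± 0.09 (SD, n = 4) in M + LFD, 12.62 ± 0.39 in M + HFD, 12.09 ± 0.64 in F + LFD, 12.12 ± 0.32 in F + HFD, 12.26 ± 0.47 in F(OVX) + LFD and 11.99 ± 0.09 in F(OVX) + HFD. The other Snap25 probe was well above background on 2 arrays and correlated with the bright one at r = -0.39, so the probes of this gene disagree. Which transcripts the bright probe reads was not tested, and its values may not be those of neuronal Snap25.

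Among the transmitter genes, Vip read 7.04, 7.80, 6.21 and 7.78 in M + LFD and 8.50, 5.63, 7.06 and 7.70 in M + HFD. It read 7.73, 6.87, 8.90 and 6.21 in F + LFD and 8.52, 8.91, 8.02 and 7.11 in F + HFD. It read 6.61, 6.84, 6.46 and 6.06 in F(OVX) + LFD and 6.51, 7.63, 7.15 and 6.63 in F(OVX) + HFD. The group mean was lowest in F(OVX) + LFD and highest in F + HFD. Tac1, the substance P gene, ranged from 9.16 to 11.9 over the arrays, with group means of 10.35 ± 0.80 in M + LFD, 10.53 ± 1.09 in M + HFD, 10.71 ± 0.76 in F + LFD, 10.50 ± 0.33 in F + HFD, 10.44 ± 0.97 in F(OVX) + LFD and 9.75 ± 0.33 in F(OVX) + HFD. Its other probe followed at r = 0.98. Nos1 was well above background on 6 arrays, 3 of them M + LFD, and on no array of M + HFD or F + LFD, and its signals lay between 2.10 and 6.12. Chat was well above background on 7 arrays and on no array of F + HFD, with signals between 2.24 and 4.48. The enzymes that make nitric oxide and acetylcholine were thus mostly too dim to compare, and no fold change is given for them.

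**Figure D1:**
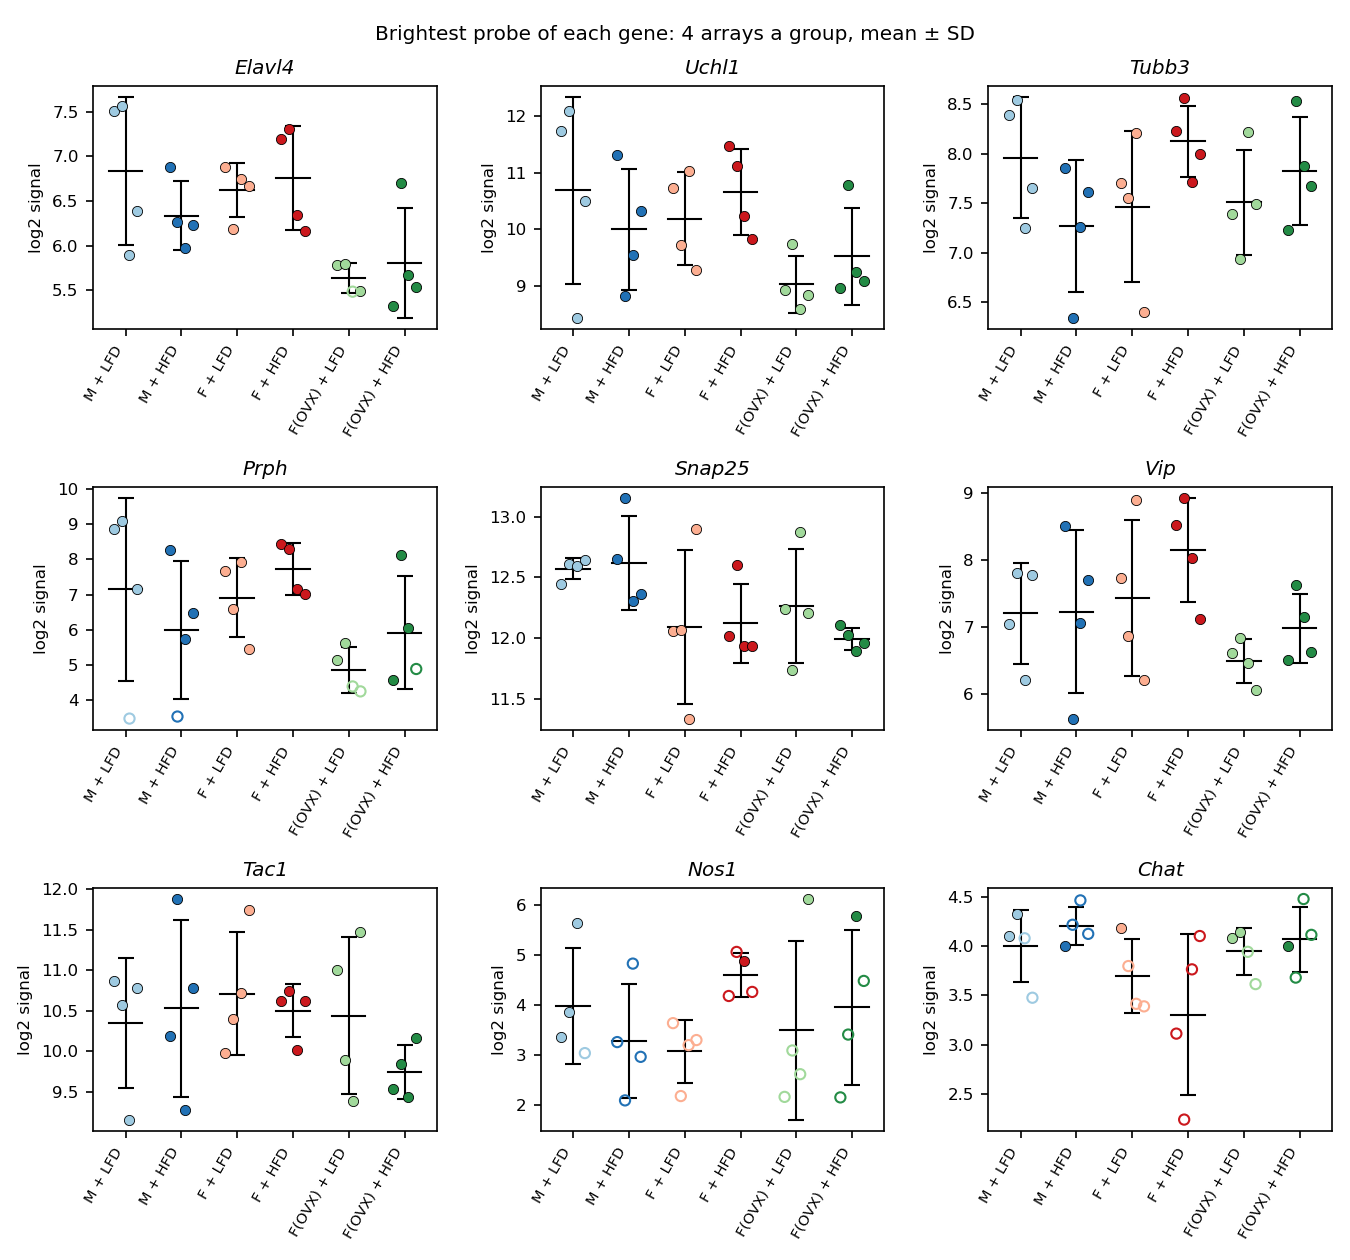
Log2 signal of the brightest probe of each gene (y axis, own scale in each panel) in the 6 groups (x axis), with 1 point per array, hollow where the spot was not well above background, and bars for mean ± SD (n = 4). Elavl4, Uchl1, Prph and Vip were lowest on average in F(OVX) + LFD, and the points of most groups overlapped.

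The order of the 6 group means was read from highest to lowest for each gene. Elavl4 and Uchl1 were highest in M + LFD and lowest in F(OVX) + LFD, with 1.20 and 1.66 log2 units between the extremes. That top place rests on replicates 1 and 2 of M + LFD, without which both F groups had the higher mean in both genes. Prph and Vip were highest in F + HFD and lowest in F(OVX) + LFD, 2.87 and 1.65 log2 units apart. Tubb3 was highest in F + HFD and lowest in M + HFD, Tac1 highest in F + LFD and lowest in F(OVX) + HFD, and Snap25 highest in M + HFD and lowest in F(OVX) + HFD. In none of the 7 genes were neighbours in the order further apart than the larger of their SDs, and the smallest unadjusted p of a neighbouring pair by limma was 0.155, in Elavl4.

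The study set out to compare HFD with LFD within M, F and F(OVX). A gene was called when limma gave an unadjusted p under 0.05 with a fold change of at least 1.5, the thresholds of the study. In M, 0 of 6 members were called where 4.3% of all 20516 genes tested were. In F it was 0 of 7 where 1.2% of 22085 were, and in F(OVX) 0 of 6 where 2.19% of 19211 were. No member reached an unadjusted p under 0.05 in limma either, a mark passed by 6.1%, 2.91% and 3.69% of all genes, and the methods' t-test called 0 members as well, against 2.38%, 0.566% and 1.09% of genes. The LFD and HFD values of every tested member overlapped in M, F and F(OVX), while 2.6%, 1.9% and 2.3% of all genes had groups that did not overlap. With so few members, counts of 0 are near these backgrounds and are no result about the list.

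The signs of the diet differences (HFD minus LFD, log2 scale, ± SE) were not the same in the 3 kinds of mice. In M, Elavl4 differed by -0.50 ± 0.40, Uchl1 by -0.69 ± 0.83 and Tubb3 by -0.69 ± 0.39, with Vip at 0.02 ± 0.61, Tac1 at 0.18 ± 0.58 and Snap25 at 0.05 ± 0.20. In F, Prph differed by 0.82 ± 0.58, Vip by 0.72 ± 0.60, Tubb3 by 0.66 ± 0.37, Uchl1 by 0.48 ± 0.49 and Elavl4 by 0.13 ± 0.29, with Tac1 at -0.21 ± 0.36 and Snap25 at 0.03 ± 0.32. In F(OVX), Uchl1 differed by 0.49 ± 0.42, Vip by 0.49 ± 0.27, Tubb3 by 0.32 ± 0.33 and Elavl4 by 0.17 ± 0.28, with Tac1 at -0.70 ± 0.43 and Snap25 at -0.27 ± 0.23. Prph was not tested by diet in M or F(OVX), where neither group had it well above background on all 4 arrays. The smallest adjusted p by limma was 0.837 in M, 0.991 in F and 0.9996 in F(OVX). In M these values rest on replicates 1 and 2 of M + LFD: without them Uchl1 was at 0.53 ± 0.81, Elavl4 at 0.19 ± 0.30 and Tubb3 at -0.18 ± 0.43. Leaving out replicate 3 of M + LFD, the array lowest in Uchl1 and Prph, brought Elavl4 (-0.82) and Tubb3 (-0.93) past the thresholds. Leaving out replicate 3 of F + LFD did so for Tubb3 (0.91) and Vip (1.21) in F, and leaving out replicate 3 of F(OVX) + LFD for Tac1 (-1.05) in F(OVX), so single arrays decide whether a member is called. Averaged over M, F and F(OVX), 0 of 7 members were called (0.773% of all 22383 genes) and the median difference of the members was 0.09, against 0.01 over all genes.

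**Figure D2:**
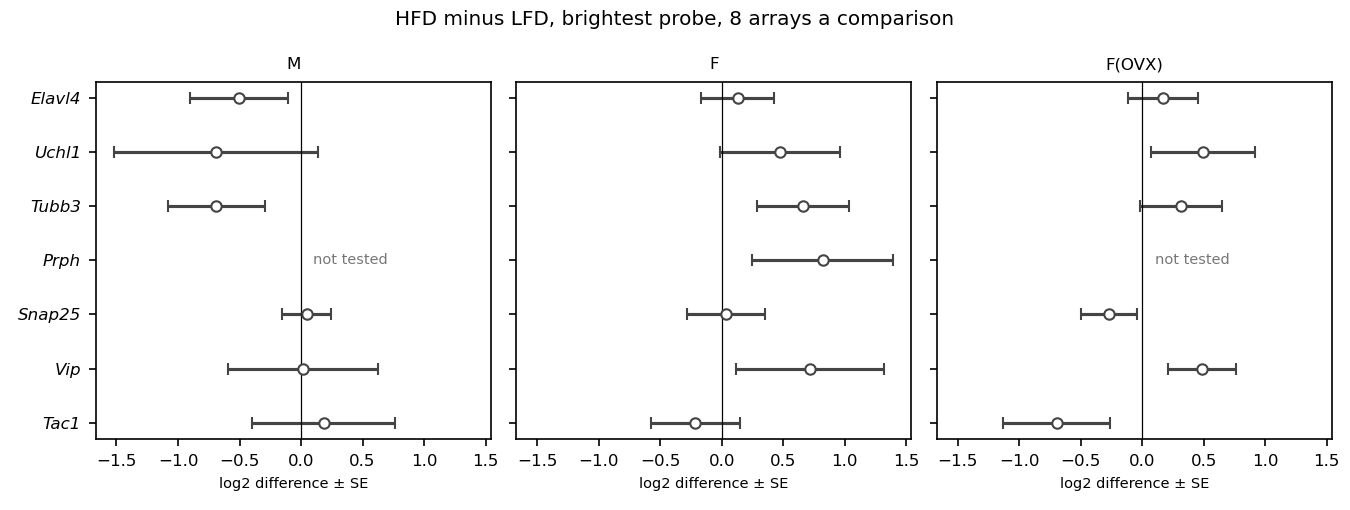
Difference between HFD and LFD on the log2 scale (x axis, ± SE from limma on 8 arrays) for each gene (y axis) in M, F and F(OVX). No gene passed the thresholds, and Elavl4, Uchl1 and Tubb3 lay below 0 in M and above 0 in F and F(OVX).

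Whether diet acted differently in M than in F was tested as the difference of the diet effects. Tubb3 was the 1 member called of 7 (1.08% of genes were called lower and 2.95% in either direction), at -1.35 ± 0.57 (limma, unadjusted p 0.0267, adjusted p 0.975), made up of -0.69 in M and 0.66 in F. It was called together with Prph and Uchl1 without replicate 3 of M + LFD and with Nos1 without replicate 4 of M + LFD, where dropping that dim array let Nos1 enter the test through M + LFD alone. It was not called without replicate 1 or 2 of M + LFD, replicate 2 of M + HFD, replicate 4 of F + LFD or replicate 2 of F + HFD, and was -0.84 ± 0.61 without both M + LFD arrays low in Hoxb13. Uchl1 differed by -1.17 ± 0.95 in the same direction, with a p-value of 0.234 by limma. Prph differed by -1.97, with a larger SE than Uchl1 and a p-value of 0.204 by limma. Prph entered the test through F, where it was high. In M + LFD and M + HFD it was well above background on 3 of 4 arrays each, so its difference says little. Between F(OVX) and F, 0 of 7 members were called (1.52% of genes), the smallest unadjusted p by limma being 0.432. Between M and F(OVX), 0 of 7 were called (6.16% of genes), the smallest being 0.0900, though Prph, Tubb3 and Uchl1 were called without replicate 3 of M + LFD and Tubb3 without replicate 3 of F(OVX) + LFD.

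Other genes of neurons were read from 5 lists of 86 genes on structure and identity, vesicle release, cholinergic transmission, neuropeptides, and nitric oxide, VIP and tachykinin signalling. In the diet comparisons 4 of 40 tested were called in M, 1 of 54 in F and 1 of 37 in F(OVX), where 4.3%, 1.2% and 2.19% of all genes were. Among those in M were Chrnb4, a nicotinic receptor subunit (-1.74), Vipr2, a receptor for VIP (-0.88), and Mapt, the microtubule protein tau (0.59). Without replicates 1 and 2 of M + LFD, 2 of 40 were called higher and 0 lower in M, so Chrnb4 and Vipr2 were no longer called. In F it was Phox2a, a transcription factor of autonomic neurons (0.89), and in F(OVX) Chrnb4 again (1.52). In the difference between M and F(OVX), 8 of 55 were called lower, where 3.05% of all genes were, and 2 higher. They were led by Chrnb4 (-3.26), Syt1, the calcium sensor of vesicle release (-2.27), Rab3c (-2.07) and Gap43, a growth cone protein (-1.94). In F(OVX) + LFD, Chrnb4 and Gap43 were well above background on 2 of 4 arrays, and Syt1 and Rab3c on 3 of 4. These differences, and that of Chrnb4 by diet in F(OVX), are therefore uncertain in size. Without replicates 1 and 2 of M + LFD, 2 were called lower and 2 higher.

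Levels on the same diet were compared between F(OVX) and F. Elavl4 was lower in F(OVX) on LFD by 0.98 ± 0.36 log2 units, at 5.64 ± 0.17 (3 of 4 arrays well above background) against 6.62 ± 0.30 (limma, unadjusted p 0.0122, adjusted p 0.99995). It was the 1 member called of 7, where 1.16% of all genes were called lower and 1.7% in either direction. Its groups did not overlap, as in 1.74% of all genes, and the exact permutation p over 70 assignments was 0.0286, two-sided, the smallest they can give. On HFD Elavl4 was lower by 0.94 ± 0.36, at 5.81 ± 0.61 against 6.75 ± 0.58 (limma, unadjusted p 0.0155, adjusted p 0.941). It was again the 1 member called of 7, where 1.33% were called lower and 2.31% in either direction. Its HFD groups overlapped, as did those of the other members (4.27% of genes did not overlap). The LFD call of Elavl4 was lost with normexp background correction (-0.49) and with the mean of all its probes (-0.33), and the HFD call with normexp (-0.46), by the methods' t-test (p 0.0673) and without the 2 arrays with the fewest probes above background (-0.76). Leaving Prph aside, 4 of 6 members on LFD were on average lower in F(OVX), with a median of -0.60, and 6 of 6 on HFD, with a median of -0.85. Over all genes the median was -0.0002 on LFD and 0.004 on HFD. The LFD and HFD contrasts share no array, but both set the F(OVX) slide against the F slide. A difference between these slides would enter both. The contrasts also share the fit and the normalization, so they are not independent.

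The other members had wide errors. Uchl1 was at -1.16 ± 0.67 on LFD and -1.15 ± 0.67 on HFD, and Vip at -0.93 ± 0.57 and -1.16 ± 0.57. Tac1 was at -0.27 ± 0.52 and -0.76 ± 0.52, Tubb3 at 0.04 ± 0.40 and -0.30 ± 0.40 and Snap25 at 0.17 ± 0.27 and -0.13 ± 0.27. Prph was at -2.05 ± 1.06 and -1.82 ± 1.06, but was well above background on 2 of 4 F(OVX) + LFD and 3 of 4 F(OVX) + HFD arrays and entered the test through F, where it was high, so its difference says little. Arrays moved these calls as well. Without replicate 2 of F(OVX) + HFD, the array high in Uchl1 and Prph, 4 members were called on HFD (Elavl4, Uchl1, Prph and Vip). Elavl4 was not called on HFD without replicate 1 or 2 of F + HFD or replicate 1 of F(OVX) + HFD, and without replicate 4 of F + HFD Vip was called too. On LFD Elavl4 was called whichever 1 of the 8 arrays was left out, with Prph and Vip called besides it without replicate 4 of F + LFD.

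Of the 55 other neuron genes tested, 10 were called lower in F(OVX) than in F on LFD (1.16% of all genes) and 0 higher, and 42 lay below 0. On HFD 6 were called lower (1.33% of all genes) and 0 higher, and 44 lay below 0. The median difference of the 55 was -0.58 on LFD and -0.47 on HFD, against -0.0002 and 0.004 over all genes. These counts and medians lean on dim genes that entered the test through a group where they were high. Of the 27 that were well above background on all 24 arrays, 2 were called lower on LFD and 2 on HFD (0.392% and 0.671% of all such genes). Below 0 lay 16 and 19, or 59.3% and 70.4%, against 46.2% and 48.4% of all such genes. Their median difference was -0.06 and -0.20, against 0.02 and 0.009 over all such genes. Of the 10 called lower on LFD, Gap43 differed by -1.83 ± 0.58 and Rab3c by -1.68 ± 0.65. Ret, the receptor for GDNF, differed by -1.67 ± 0.69 and Penk, the enkephalin precursor, by -1.56 ± 0.69. The 6 called lower on HFD were led by Tlx2 (-2.24 ± 0.95) and Elavl3, a relative of Elavl4 (-2.11 ± 0.92). After them came Penk (-1.72 ± 0.69), Gap43 (-1.27 ± 0.58) and Hand2 (-1.24 ± 0.59). Several were dim in F(OVX): Gap43 and Ret were well above background on 2 of 4 F(OVX) + LFD arrays and Tlx2, Elavl3 and Hand2 on 1 of 4 F(OVX) + HFD arrays, against 4 of 4 in F, so their differences are uncertain in size. Adjusted p-values by limma were 0.99995 on LFD and 0.941 on HFD for all of them. The methods' t-test called 9 and 8 lower. Without the arrays with the fewest probes above background, which were replicate 3 of F(OVX) + LFD and replicate 2 of F + HFD, 4 (LFD) and 1 (HFD) of 57 were called lower, and with normexp background correction 4 and 3 of 55. The shares of all genes called under these other settings are not given, so these counts stand without a background. Smooth muscle markers moved with them: 3 of 15 were called lower on LFD (Des, Cnn1 and Myocd) and 1 on HFD (Hhip), with 14 and 15 below 0. Their mean per array ranged from 9.77 to 11.2 in F(OVX) + LFD against 10.7 to 12.6 in F + LFD, and from 11.04 to 12.12 in F(OVX) + HFD against 11.62 to 12.17 in F + HFD. Of the glia markers, 1 of 5 was called lower on each diet (Sox10 on LFD, Kcna1 on HFD). The part of muscle and glia content in the lower neuron signals was not tested.

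M and F differed on HFD in 1 member of 7, Tubb3, which was lower in M by 0.86 ± 0.40 log2 units (7.27 ± 0.66 against 8.12 ± 0.36, limma, unadjusted p 0.0446, adjusted p 0.351). Of all genes, 3.28% were called lower and 7.51% in either direction, so 1 of 7 is no result about the list. The call of Tubb3 was lost when the replicate number was a block (limma, p 0.0566) and with the methods' t-test, and the groups overlapped (exact permutation p 0.0571). It was lost too without replicate 2 or 3 of M + HFD or replicate 1, 2 or 4 of F + HFD, and Snap25 was called in place of it without replicate 2 and Vip without replicate 4 of F + HFD. Without replicate 1 of M + HFD, 3 members were called (Prph, Tubb3 and Vip). On LFD 0 of 7 members were called between M and F (5.06% of genes), and the smallest unadjusted p by limma was 0.0847, in Snap25. Snap25 was called without replicate 4 of F + LFD and Uchl1 without replicate 3 of M + LFD.

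**Figure D3:**
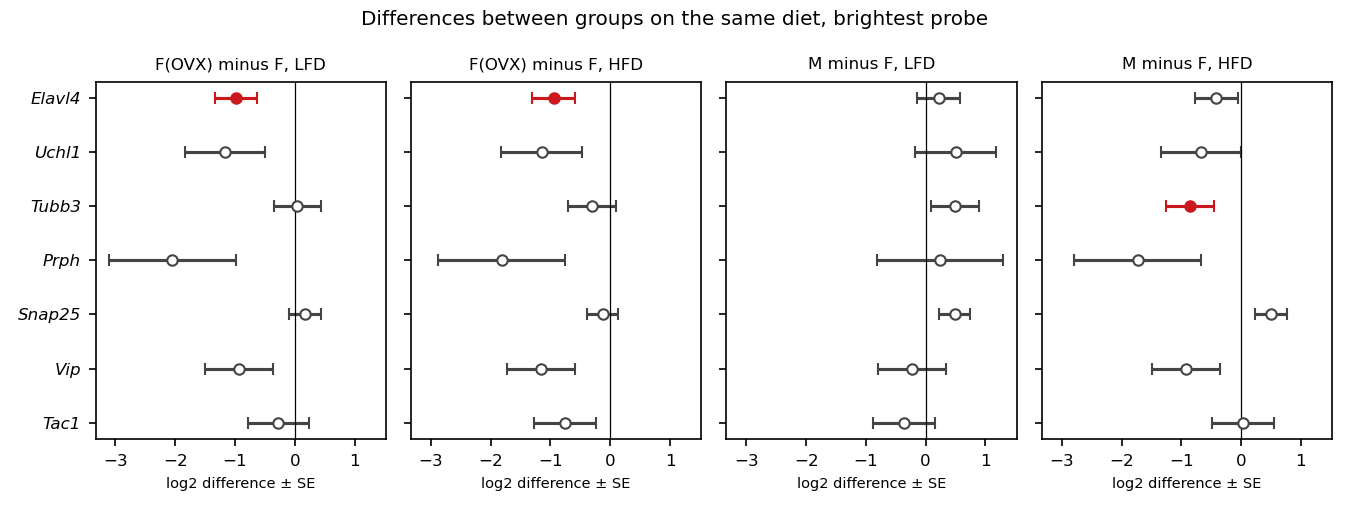
Difference between groups fed the same diet on the log2 scale (x axis, ± SE from limma on 24 arrays) for each gene (y axis), with filled red points for called genes. Elavl4 was called lower in F(OVX) than in F on both diets and Tubb3 lower in M than in F on HFD.

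The SD of single mice within groups was 1.01 in Uchl1 and 0.53 in Elavl4, and the SD of the group means 0.65 and 0.50. Means of several mice vary less than single mice even where groups do not differ. These SDs therefore cannot tell whether groups differed less than mice within groups. To describe the differences within groups, each group's mean was taken away and the deviations were correlated over the 24 arrays. This is a description without a test, since the points share arrays, slides and normalization. Uchl1 and Prph followed each other at r = 0.97 (Spearman's rho 0.95), and at 0.95 without the 2 arrays farthest from the median of Uchl1. Uchl1 followed Elavl4 at r = 0.87, Vip at 0.80 and Tubb3 at 0.72. Over all 10 pairs of these 5 genes, which were put together after their values were seen, r lay between 0.56 and 0.97, and between 0.45 and 0.96 without replicates 1 and 2 of M + LFD. Second probes of Elavl4 and Prph, though dim, followed the bright ones at 0.81 and 0.86, whereas the third Elavl4 probe, well above background on 2 arrays, did not (0.07).

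Tac1 and the bright Snap25 probe did not take part. Tac1 correlated with the 5 genes at r between -0.21 and 0.28 and Snap25 at r between -0.43 and 0.05. On replicate 3 of M + LFD, for instance, Uchl1 and Prph were at the lowest of all 24 arrays and Snap25 was at 12.60, within 0.1 log2 units of replicates 2 and 4 of its group. On replicate 2 of M + HFD, where Uchl1, Prph and Vip were low, Tac1 reached 11.88, the highest of the series. Nos1 and Chat, mostly at background, correlated with other members at -0.20 to 0.05 and -0.34 to 0.05, and without replicates 1 and 2 of M + LFD Chat reached -0.61 with Elavl4.

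Averages of the other neuron lists moved with the 5 genes to differing degrees. The 5 genes followed the mean of the structure and identity genes at r = 0.69 to 0.98, of the vesicle release genes at 0.60 to 0.97, of the neuropeptides at 0.73 to 0.96, of the cholinergic genes at 0.52 to 0.78 and of nitric oxide, VIP and tachykinin signalling at 0.40 to 0.58. Without replicates 1 and 2 of M + LFD the last range was 0.23 to 0.49. Glia markers followed the 5 genes at 0.74 to 0.93, and at 0.62 to 0.90 without the M + LFD arrays low in Hoxb13, with 5 of 12 glia markers bright enough to enter the mean and none dim on every array. Smooth muscle markers followed less closely, at 0.31 to 0.73, anterior Hox genes at 0.51 to 0.82, interstitial cells of Cajal at -0.09 to 0.44 and epithelium at 0.16 to 0.44. Distal Hox genes were at -0.44 to 0.16. Without replicates 1 and 2 of M + LFD, smooth muscle was at 0.39 to 0.73 and anterior Hox genes at 0.52 to 0.74. Interstitial cells of Cajal were then at 0.03 to 0.50, epithelium at 0.04 to 0.23 and distal Hox genes at 0.15 to 0.45. Tac1 followed the neuron, glia and muscle lists at 0.20 at most, and Snap25 ran against smooth muscle at -0.70 and against glia at -0.51. The part of the amount of gut wall, or of its place along the colon, in these differences was not tested.

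**Figure D4:**
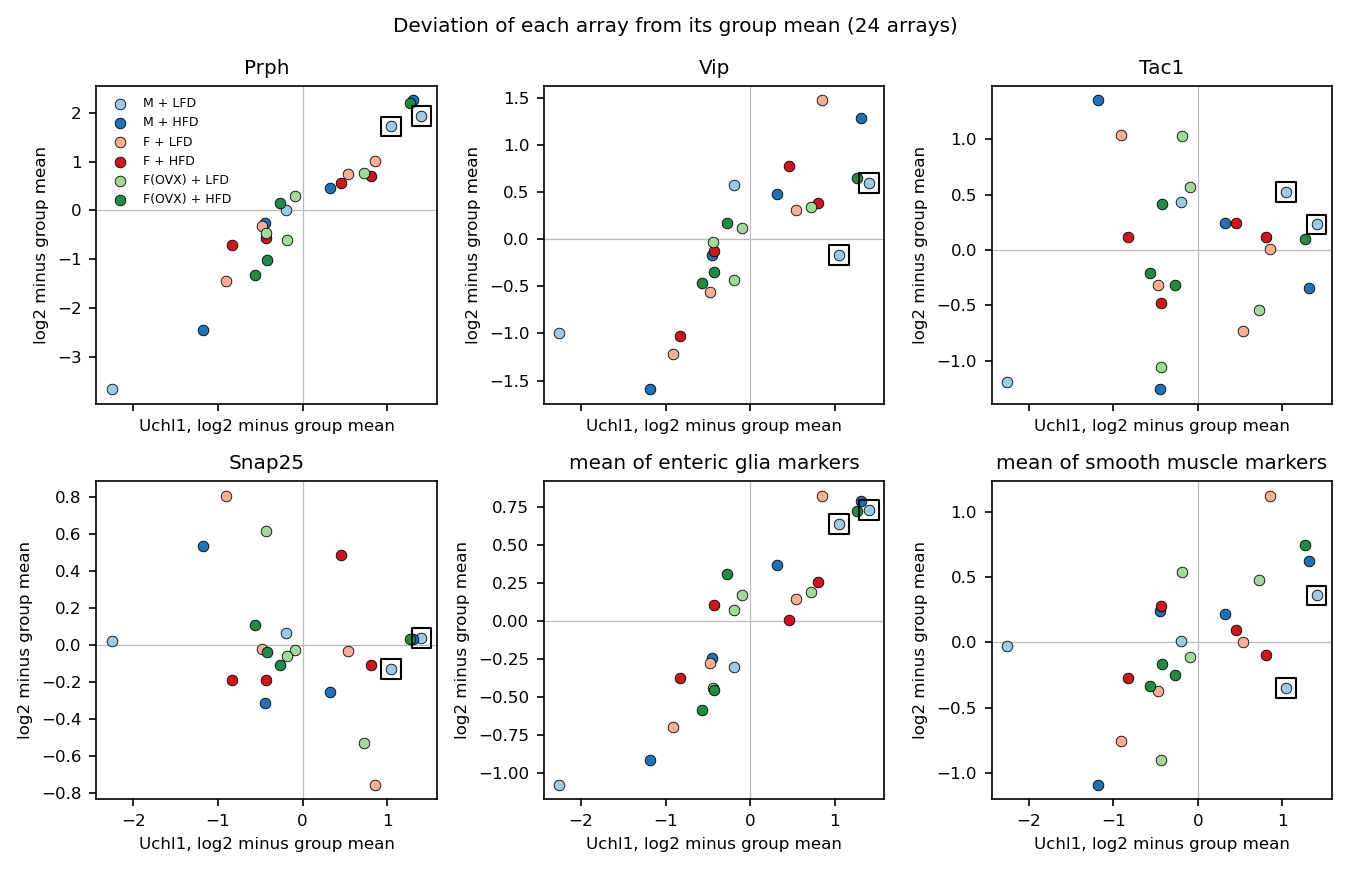
Deviation of Uchl1 from its group mean on the log2 scale (x axis) against that of Prph, Vip, Tac1, Snap25 and the means of glia and smooth muscle markers (y axis), 1 point per array, with replicates 1 and 2 of M + LFD in squares. Prph, Vip and glia markers followed Uchl1 (r = 0.97, 0.80 and 0.92), muscle markers less so (0.57), and Tac1 and Snap25 did not (0.08 and -0.33).

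**Figure D5:**
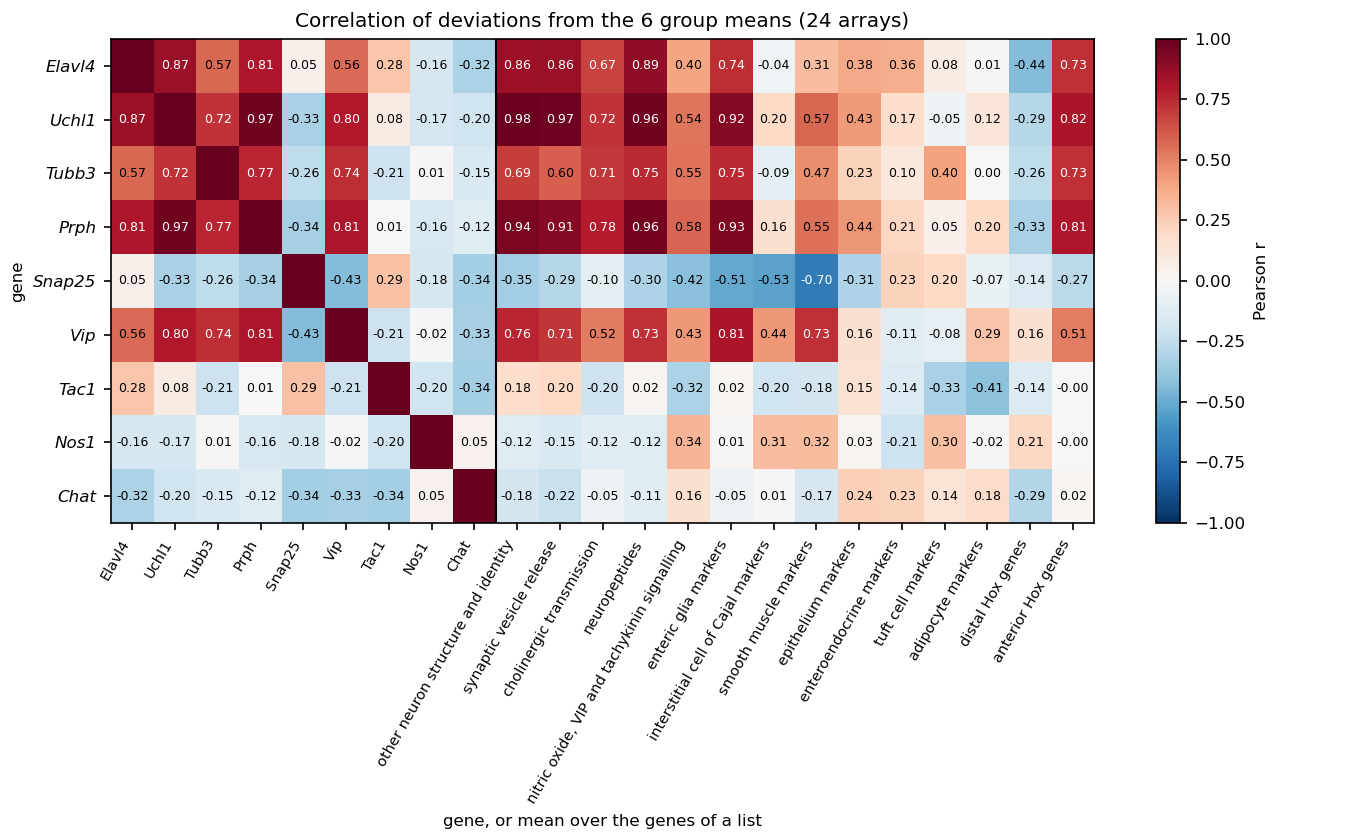
Pearson r over 24 arrays of deviations from the group means, for each gene (rows) with each other gene and with the mean of each gene list (columns), from -1 (blue) to 1 (red). Elavl4, Uchl1, Tubb3, Prph and Vip formed a red block with the other neuron lists, glia and anterior Hox genes (0.51 to 0.82), and less so with smooth muscle (0.31 to 0.73). Snap25, Tac1, Nos1 and Chat lay outside of it.

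Ranked by Uchl1, the top arrays were replicates 2 and 1 of M + LFD, replicate 1 of F + HFD, replicate 1 of M + HFD and replicate 2 of F + HFD, and Prph held the same 5 arrays at its top. The lowest in both was replicate 3 of M + LFD. Mice at both ends of the range thus belonged to the same group, and without replicates 1 and 2 the level of Uchl1 in M + LFD rested on 8.44 and 10.50.

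The genes most like the 7 tested members together, among 14102 candidates, were Dpysl5 (r = 0.93), which acts in axon growth, Sgip1 (0.92), an endocytic adaptor, Tmem59l (0.91), Gng3 (0.91), a G protein subunit, and S100b (0.91), the calcium-binding protein of enteric glia. For single members the most alike genes were Scg3 for Elavl4 (0.91), Tmem59l for Uchl1 (0.98), Stmn3 for Prph (0.98), Wasf1 for Tubb3 (0.91) and Dbh, which makes noradrenaline in sympathetic nerves, for Vip (0.93). For Snap25 it was Idua (0.97), a lysosomal enzyme, and for Tac1 Ssh3 (0.69).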

How the data were processed

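Gene expression in colon RNA of 24 mice was measured on 1-color Agilent arrays. The authors scanned the arrays and extracted them with Agilent Feature Extraction 11.0.1.1. Deposited intensities are linear, with the background subtracted within each array and no normalization between arrays, and each spot carries flags for its detection, saturation and uniformity. Control spots were left out, outlier spots were set to missing, and log2 values were computed here from the deposited intensities and quantile-normalized. Probes were named by matching accessions to a RefSeq gene table of GRCm38.p6, and 32994 of 56605 probes (58.3%) received a symbol. Genes were represented by their brightest probe over all arrays. Each diet comparison was fitted on its own 8 arrays with limma 3.58.1 in R 4.3.3, and all other contrasts on 24 arrays, with p-values adjusted over all genes by the Benjamini-Hochberg method. Nothing in the labels says that replicates came from separate cages or litters. Deviations of LFD and HFD arrays with the same replicate number correlated at r = 0.25, 0.39, 0.51 and 0.23 in F. They correlated at -0.22 to 0.06 in M and at -0.08 to 0.31 in F(OVX). Correlations between arrays with different numbers were not computed, so whether the numbers pair the arrays was not tested. The named genes are all 9 members, up to 5 called genes of the other neuron lists per comparison by size, and the genes most correlated with the members, and some genes that the rule names are not reported here. The first genes of the marker lists were also to be named, and other markers stand in the text where they were called. The members, lists and rules were chosen with earlier results of these data known. The tests were tried on simulated data. Alternatives were 75th percentile scaling, normexp correction, other filters and probe rules, the methods' t-test, a replicate block and leaving out arrays.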

Additional observations from a re-analysis of the deposited data

Results flagged for a closer look

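Of 54 sets of 4 arrays checked for an array apart from the rest, 2 had one, and chance gives about 1 in 20. Uchl1 read 10.78 on replicate 2 of F(OVX) + HFD, against 8.95 to 9.25 on the other arrays of the group. Snap25 read 12.61 on replicate 2 of F + HFD, an array with few probes above background, against 11.93 to 12.02 on the others.

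The diet effect on Tubb3 differed between M and F by -1.35 log2 units in limma (unadjusted p 0.0267, adjusted p 0.975), with HFD below LFD in M and above it in F. The difference was not called without both M + LFD arrays low in Hoxb13 (-0.84).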

How the results depend on the processing

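Calls of members moved with the settings and no value of a called gene changed sign. In F, 1 member (Nos1) was called by diet with no filter on dim probes. Without the 2 arrays with the fewest probes above background, 1 was called by diet in F(OVX) (Tac1), 1 in the difference between M and F(OVX) (Tubb3) and 0 on HFD between F(OVX) and F. Without both arrays low in Hoxb13, chosen from their Hoxb13 values, 0 differed in diet effect between M and F. On LFD between M and F, 1 (Snap25) was called from the mean of all probes. On HFD between M and F, 2 were called with no filter (Chat and Tubb3) and 0 by the methods' t-test. Between F(OVX) and F on LFD, 0 were called with normexp, with probes above background on all 24 arrays or with the mean of all probes, and 2 by the methods' t-test (Elavl4 and Prph). On HFD, 2 were called with 75th percentile scaling (Elavl4 and Vip), 2 with no filter (Chat and Elavl4), 2 by the methods' t-test (Tac1 and Vip) and 0 with probes above background on all 24 arrays. Those probes left 5 members to test, and for the other changes the cause was not tested.

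With 1 array left out at a time, the number of members called by diet ran from 0 to 2 in M, 0 to 2 in F and 0 to 1 in F(OVX). For differences of diet effects it ran from 0 to 3 for M minus F and for M minus F(OVX), and was 0 throughout for F(OVX) minus F and for the average. It ran from 0 to 1 (LFD) and 0 to 3 (HFD) between M and F, and from 1 to 3 (LFD) and 0 to 4 (HFD) between F(OVX) and F.

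With the replicate number as a block in all groups, 0 members were called between M and F on HFD and no other count changed. Vip in F(OVX) then had an unadjusted p of 0.0443 in limma at a fold change of 1.40, under the threshold. The counts of other neuron genes and markers under other settings were added after the data were seen, and stand without the shares of all genes under those settings. Of the values of single members under the settings, 1312 kept their direction and side of the thresholds, 32 came past the thresholds and 22 no longer passed them, and 106 that were called in neither setting changed sign. The 4 arrays in a group limit every difference, and dim probes (Nos1, Chat and part of Prph) are limited by the background.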
